A study of Mus musculus with 16 samples.

Results

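The genes of glycolysis and of the response to low oxygen were followed as a set of 38 gene symbols, taken by name from the 56748 genes listed in the expression table. They comprise 4 transporters of glucose and lactate, 16 glycolytic enzymes, 4 regulators of glycolytic flux and 14 hypoxia targets with no step in glycolysis. Each symbol was found, and 1 of them, Aldoa, had 2 rows. The libraries were bulk RNA-seq of E11.5 mouse embryos, from 4 groups of 4: Ednrb-/- caudal region, Ednrb-/- trunk region, WT (Ednrb+/+) caudal region and WT trunk region. Ednrb encodes the endothelin B receptor, which carries a targeted mutation here, and the study asked how the local surroundings shape where pigmented patches form in such mice. The titles call the libraries of a group biological replicates. The sources used here give no strain, sex, litter or extent of the deletion, nor whether a caudal and a trunk library shared an embryo or pooled several.

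Glycolysis turns glucose into pyruvate, and lactate dehydrogenase can turn pyruvate into lactate, which leaves the cell through proton-linked carriers. When oxygen is short, the prolyl hydroxylases that mark HIF-1α for degradation slow down, and HIF dimers bind ACGTG or GCGTG motifs and raise transcription of most glycolytic genes and of targets such as Vegfa, Bnip3 and Egln3. Glycolytic genes can also be high where oxygen is not limiting, and in mouse and chick embryos the tail bud is known for high glycolysis that declines toward the anterior. Hypoxia targets that are not metabolic were therefore kept apart from the enzymes here.

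Depth was 34883821 to 43444905 reads in listed genes per library. Ednrb itself averaged 2.34 ± 0.847 FPKM (a measure of read density along the gene, scaled for depth) in Ednrb-/- caudal and 3.98 ± 0.596 in Ednrb-/- trunk tissue, against 30.6 ± 3.17 in WT caudal and 38.7 ± 2.79 in WT trunk tissue (SD, n = 4 each), as the genotype labels say. All 12 posterior Hox genes listed as a region check were lower in trunk than in caudal tissue in both genotypes (limma, adjusted p under 0.05). In 3 libraries, Ednrb-/- caudal replicate 3, Ednrb-/- trunk replicate 3 and WT caudal replicate 2, the female marker Xist and the male marker Ddx3y were both at or above 5 FPKM. Counts are given with and without those libraries.

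The promoters of 4 members show the letters that HIF can bind, and were chosen for members that differ in direction or region below: Slc16a3 and Ldha, which were higher in Ednrb-/- tissue, Ldhb, which was lower, and Higd1a, whose genotype difference was larger in caudal than in trunk tissue. Each run is the 250 bases before the gene start, 5′ to 3′ on the gene's strand, from RefSeq on GRCm38.p6, and capitals mark ACGTG or GCGTG on either strand, overlapping matches joined. Slc16a3 lies at chr11:120948817-120949066 (plus strand), Ldha at chr7:46845554-46845803 (plus strand, the first of its 2 listed starts), Ldhb at chr6:142507958-142508207 (minus strand) and Higd1a at chr9:121857797-121858046 (minus strand).
Slc16a3: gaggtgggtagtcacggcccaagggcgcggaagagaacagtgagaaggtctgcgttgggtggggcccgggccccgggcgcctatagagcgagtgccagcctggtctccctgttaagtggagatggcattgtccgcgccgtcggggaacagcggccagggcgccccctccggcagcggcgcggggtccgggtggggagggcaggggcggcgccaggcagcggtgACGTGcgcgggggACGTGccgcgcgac
Ldha: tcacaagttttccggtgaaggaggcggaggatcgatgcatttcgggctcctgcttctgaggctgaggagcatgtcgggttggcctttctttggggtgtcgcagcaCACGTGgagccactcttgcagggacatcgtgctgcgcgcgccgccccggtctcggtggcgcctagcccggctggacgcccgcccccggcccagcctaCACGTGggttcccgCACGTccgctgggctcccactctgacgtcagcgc
Ldhb: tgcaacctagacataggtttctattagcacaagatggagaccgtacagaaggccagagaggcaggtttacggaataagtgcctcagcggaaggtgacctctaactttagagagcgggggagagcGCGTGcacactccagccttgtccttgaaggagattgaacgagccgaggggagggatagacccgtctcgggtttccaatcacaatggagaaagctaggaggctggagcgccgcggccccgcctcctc
Higd1a: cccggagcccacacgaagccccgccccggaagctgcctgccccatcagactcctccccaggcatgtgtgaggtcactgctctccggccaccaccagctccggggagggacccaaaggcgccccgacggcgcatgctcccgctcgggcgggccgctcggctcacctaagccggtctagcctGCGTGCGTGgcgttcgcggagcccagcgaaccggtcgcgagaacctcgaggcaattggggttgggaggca
Slc16a3 had 2 separate stretches, Ldha 3, Ldhb 1 and Higd1a 1, so the motif was present in the promoter of the enzyme that was lower as well as in those that were higher. Of the 35 members found in the promoter table, 32 (91.4%) held at least 1 match, all but Gpi1, Tpi1 and Mif. The same letters were found in 60.8% of the 11098 tested genes matched to the table and in 41.5% of all 27025 genes in it. Matches and CpG pairs were taken as the highest over the listed starts of a gene. The median number of CpG pairs in the window was 19 for members, 17 for tested genes and 6 for all genes in the table. Each of these short motifs contains a CpG, and the part of CpG content in the shares was not tested. A match describes letters only. Slc2a3, Bnip3l and Ndrg1 were not matched.

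The members spanned a wide range of levels. On the per-length FPKM scale, averaged over all 16 libraries, Pkm was the highest at 330.2 FPKM, followed by Mif (307), Pgk1 (235), Ldha (201) and Eno1 (198). The lowest were Ndrg1, Adm, Aldoc and Car9, each under 1 FPKM on average, whose fold changes on the log2(FPKM + 0.5) scale are understated. Summed over the 16 enzymes, the levels in replicates 1 to 4 were 2139, 2255, 1890.0 and 2244 FPKM in Ednrb-/- caudal and 1663, 1625, 1508 and 1718 in Ednrb-/- trunk tissue, against 1304, 1444, 1512 and 1288 in WT caudal and 1196, 1196, 1147 and 1194 in WT trunk tissue. Every Ednrb-/- library thus stood above every WT library of its own region. The order of the means was Ednrb-/- caudal, Ednrb-/- trunk, WT caudal and WT trunk. The middle 2 groups touched, with 1508 to 1718 FPKM in Ednrb-/- trunk and 1288 to 1512 in WT caudal tissue. The enzymes took 0.771% ± 0.0527 of all reads in Ednrb-/- caudal, 0.603% ± 0.0324 in Ednrb-/- trunk, 0.519% ± 0.0369 in WT caudal and 0.444% ± 0.00771 in WT trunk tissue (SD, n = 4 each). In bulk tissue, fewer cells of a type and less RNA per cell cannot be told apart.

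The first question was which of these genes differed between Ednrb-/- and WT embryos in each region. In caudal tissue 23 of the 38 genes were higher in Ednrb-/- embryos, 4 were lower and 11 did not pass (limma on log2(FPKM + 0.5), Benjamini-Hochberg adjusted p under 0.05). Of all 17205 genes tested, 21.7% were called higher and 19.9% lower there. In trunk tissue 19 were higher, 5 lower and 14 did not pass, beside 12.2% higher and 13.0% lower among all genes tested. The median change of the 38 was 0.41 in caudal and 0.23 in trunk tissue on the log2 scale, beside 0.007 and 0.004 over all genes tested.

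The counts were then read by role. In caudal tissue all 4 transporters were higher, 11 of 16 enzymes were higher and 4 lower, 2 of 4 regulators were higher, and 6 of 14 hypoxia targets were higher with none lower. Their medians were 0.69, 0.62, 0.23 and 0.15 on the log2 scale in that order. In trunk tissue 3 transporters, 10 enzymes, 2 regulators and 4 hypoxia targets were higher, while 4 enzymes and 1 hypoxia target were lower. The medians there were 0.41 for transporters, 0.46 for enzymes, 0.18 for regulators and 0.15 for hypoxia targets. The caudal and trunk comparisons use separate libraries, but the same fit gives them a shared estimate of the spread. Whether a caudal and a trunk library came from the same embryo is not given, so the comparisons may not be independent. The same 19 genes were higher in both, which is 19 of the 23 higher in caudal and all 19 higher in trunk tissue, and the same 4 enzymes were lower in both, which is all 4 lower in caudal and 4 of the 5 lower in trunk tissue. Among all genes tested 8.11% were called higher in both regions and 9.27% lower in both. The Ednrb-/- libraries were all above the WT libraries for 23 of the 38 genes and all below for 3 in caudal tissue, beside 19.1% and 18.2% of all genes tested. In trunk tissue they were all above for 18 and all below for 5, beside 13.9% and 14.2%. Slc2a3, Aldoc, P4ha1 and Higd1a were called higher in caudal tissue and not called in trunk tissue. Without the 3 libraries with both sex markers the counts were 23 higher and 3 lower in caudal, and 21 higher and 4 lower in trunk tissue.

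The split of all genes between higher and lower depended on scaling. The total behind FPKM, relative to listed reads, was smaller in every Ednrb-/- library than in any WT library, which raises Ednrb-/- FPKM slightly. The median change over all genes tested in caudal tissue was 0.007 on the deposited scale and -0.061 with limma-voom on the log2 scale. In caudal tissue 3732 genes were higher and 3432 lower on the deposited scale, against 2219 higher and 5017 lower under TPM scaling and 2613 higher and 4447 lower with limma-voom on whole reads. In trunk tissue 2092 were higher and 2229 lower on the deposited scale, and 1729 higher and 2965 lower with limma-voom. The members kept their balance, with 21 higher and 4 lower under TPM scaling and 22 higher and 5 lower with limma-voom in caudal tissue. In trunk tissue the member counts were 19 higher and 5 lower under TPM scaling, and 17 higher and 5 lower with limma-voom.

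**Figure D1:**
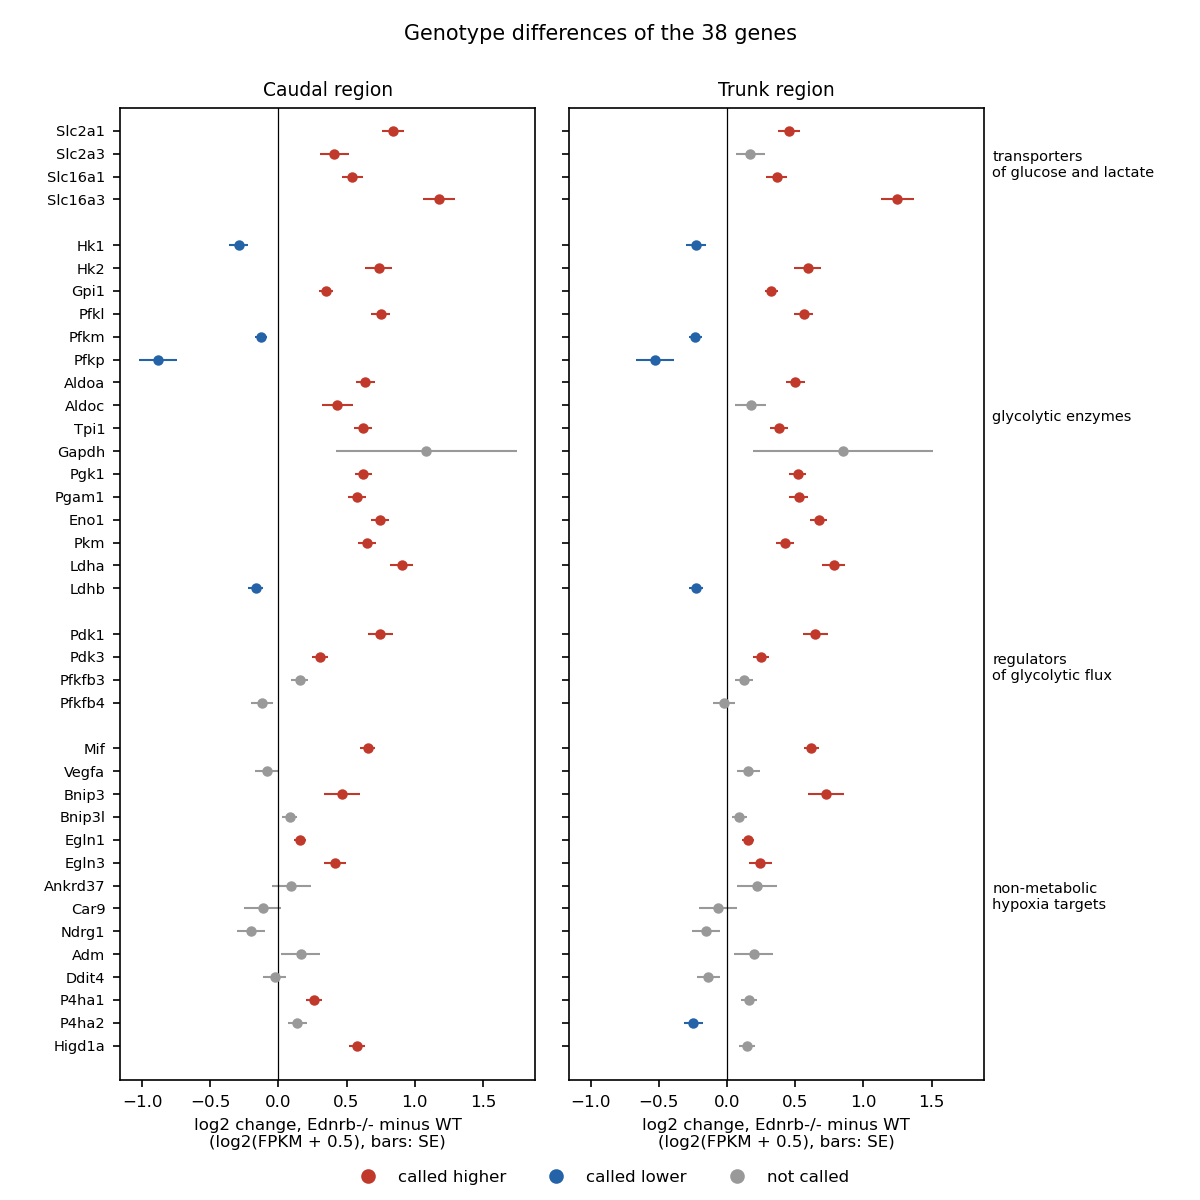
Log2 change of each of the 38 genes, Ednrb-/- minus WT, in caudal (left) and trunk tissue (right) on the log2(FPKM + 0.5) scale, with bars for the SE and 4 libraries per group. Red points were called higher, blue lower and grey neither. Most transporters and enzymes sit right of 0 in both panels, Hk1, Pfkm, Pfkp and Ldhb sit left of 0 in both, and Gapdh has by far the widest SE.

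Markers of cell types differed with genotype too, and their counts stand beside the shares of all genes called that are given above. All 10 neuronal markers were lower in Ednrb-/- caudal tissue, where they summed to 175 to 326 FPKM, against 446 to 610.3 in WT caudal tissue. None of the 10 was called in trunk tissue (521 to 597 FPKM in Ednrb-/- and 531 to 704 in WT tissue). Skeletal muscle markers were lower for 8 of 10 in caudal and 7 of 10 in trunk tissue, with 1 higher in trunk. Their sums were 103 to 135 FPKM in Ednrb-/- caudal and 232 to 250.3 in WT caudal tissue, and 289.8 to 311 in Ednrb-/- trunk and 396 to 498 in WT trunk tissue. Epithelial markers were higher for 7 of 8 in caudal and 3 of 8 in trunk tissue, summing to 74.5 to 95.3 FPKM in Ednrb-/- caudal and 38.4 to 50.2 in WT caudal tissue, and 34.7 to 40.7 in Ednrb-/- trunk and 24.3 to 35.0 in WT trunk tissue.

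Endothelial markers were higher for 8 of 10 in caudal and 5 of 10 in trunk tissue, and macrophage markers lower for 8 of 10 and 7 of 10. The endothelial sums were 118 to 126 FPKM in Ednrb-/- caudal and 94.7 to 103 in WT caudal tissue, and 93.3 to 96.6 in Ednrb-/- trunk and 75.1 to 89.7 in WT trunk tissue. Macrophage sums were 19.2 to 25.8 FPKM in Ednrb-/- caudal and 30.7 to 35.5 in WT caudal tissue, and 19.4 to 23.5 in Ednrb-/- trunk and 26.6 to 32.9 in WT trunk tissue. Of 11 erythroid markers, 1 was higher and 4 lower in caudal tissue, and 1 was higher and 5 lower in trunk tissue, where the sums were 3674 to 4180.0 FPKM in Ednrb-/- and 4733 to 6271 in WT embryos. The caudal erythroid sums overlapped, at 3743 to 6060.0 FPKM in Ednrb-/- and 5314 to 6411 in WT embryos. Tail bud markers, of which 5 of 10 were higher in caudal and 1 of 10 in trunk tissue, summed to 36.7, 22.0, 34.8 and 48.5 FPKM in Ednrb-/- caudal replicates 1 to 4 and 17.7, 22.4, 28.8 and 6.36 in WT caudal replicates 1 to 4. Each marker listed passed the filter on low values. The trunk sums of the tail bud markers were 4.61 to 5.13 FPKM in Ednrb-/- and 3.03 to 4.21 in WT tissue. The part of these cell types and of the cutting level in the changes of the glycolytic genes was not tested.

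Among the transporters, Slc16a3 had the largest genotype difference of all called members in both regions. Slc16a3 (chr11:120839306-120851694 on mm39, plus strand) encodes MCT4, the carrier that exports lactate from glycolytic cells. Its levels were 15.9, 18.03, 12.1 and 17.5 FPKM in Ednrb-/- caudal replicates 1 to 4, against 7.64, 6.95, 6.94 and 5.29 in WT caudal replicates. They were 11.9, 9.77, 9.59 and 10.3 FPKM in Ednrb-/- trunk, against 4.50, 3.97, 3.88 and 3.94 in WT trunk replicates. The groups did not overlap in either region, and even the lowest Ednrb-/- trunk library was above the highest WT caudal library. The log2 change was 1.18 (SE 0.118, adjusted p = 5.7e-06) in caudal and 1.25 (SE 0.118, adjusted p = 1.2e-05) in trunk tissue.

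Slc2a1 (chr4:118965908-118995180, plus strand) encodes GLUT1, the basal glucose importer of most embryonic cells. It stood at 51.4, 65.2, 47.5 and 56.7 FPKM in Ednrb-/- caudal, against 32.2, 29.9, 32.8 and 27.0 in WT caudal replicates. In trunk tissue it stood at 34.9, 32.2, 29.5 and 33.8 FPKM in Ednrb-/-, against 23.98, 23.9, 23.4 and 23.1 in WT replicates. All Ednrb-/- libraries were above all WT libraries of the same region, with a log2 change of 0.84 (SE 0.083, adjusted p = 5.3e-06) in caudal and 0.46 (SE 0.083, adjusted p = 0.0012) in trunk tissue. Slc16a1, which encodes the lactate and pyruvate carrier MCT1, was also higher in both regions without overlap, by 0.54 (adjusted p = 5.9e-05) in caudal and 0.36 (adjusted p = 0.0029) in trunk tissue on the log2 scale. Slc2a3, which encodes the high-affinity glucose importer GLUT3, was called higher in caudal tissue at 0.41 (adjusted p = 0.006), although the caudal groups overlapped (18.7 to 23.5 FPKM in Ednrb-/- and 13.1 to 19.9 in WT libraries). In trunk tissue its change was 0.17 (adjusted p = 0.26) and was not called.

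The enzymes that were higher in Ednrb-/- embryos belong to the steps from hexokinase to lactate, all but that of Gapdh, which was not called. Ldha (chr7:46490899-46505051, plus strand), the lactate dehydrogenase subunit that favours lactate production, had 309, 352, 266 and 334 FPKM in Ednrb-/- caudal, against 159, 179, 188 and 147 in WT caudal replicates. In trunk tissue it had 219.7, 201, 186 and 209.6 FPKM in Ednrb-/-, against 122, 121, 114 and 116 in WT replicates. There was no overlap in either region, and the log2 change was 0.90 (SE 0.085, adjusted p = 3.6e-06) in caudal and 0.78 (SE 0.085, adjusted p = 3.3e-05) in trunk tissue. Pfkl (chr10:77822781-77845917, minus strand), the liver-type subunit of phosphofructokinase, the main control step of glycolysis, had 38.1, 38.4, 31.6 and 37.7 FPKM in Ednrb-/- caudal, against 19.97, 23.0, 22.6 and 20.3 in WT caudal replicates. In trunk tissue Pfkl had 25.1, 23.3, 22.3 and 26.7 FPKM in Ednrb-/-, against 15.4, 17.0, 15.8 and 16.9 in WT replicates. Again the groups were apart, with a log2 change of 0.75 (SE 0.07, adjusted p = 3.6e-06) in caudal and 0.56 (SE 0.07, adjusted p = 7.9e-05) in trunk tissue.

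Hk2 (chr6:82702006-82751435, minus strand), the inducible hexokinase that traps glucose in the cell, had 14.1, 18.1, 12.9 and 16.5 FPKM in Ednrb-/- caudal, against 8.68, 9.18, 9.98 and 8.17 in WT caudal replicates. It had 10.4, 10.3, 9.52 and 11.9 FPKM in Ednrb-/- trunk, against 6.01, 6.85, 6.90 and 7.55 in WT trunk replicates. Its groups were apart in both regions, with a log2 change of 0.73 (SE 0.099, adjusted p = 4.6e-05) in caudal and 0.59 (SE 0.099, adjusted p = 0.00063) in trunk tissue. Eno1 (chr4:150321178-150333336, plus strand), the ubiquitous enolase, had 272, 307, 253 and 293 FPKM in Ednrb-/- caudal, against 159.7, 177, 180.0 and 153 in WT caudal replicates. It had 213, 212, 196 and 224 FPKM in Ednrb-/- trunk, against 134, 133, 129 and 132 in WT trunk replicates. The log2 change of Eno1 was 0.74 (SE 0.063, adjusted p = 2e-06) in caudal and 0.67 (SE 0.063, adjusted p = 1.1e-05) in trunk tissue, again without overlap. Eno1 has a near-identical copy, Eno1b, and the sources used here do not state how reads shared by copies were counted. Eno1b was listed at 13.7 ± 1.81 FPKM in Ednrb-/- caudal and 11.1 ± 0.713 in Ednrb-/- trunk, against 9.51 ± 1.43 in WT caudal and 6.41 ± 0.799 in WT trunk tissue (SD, n = 4 each). How much of the Eno1 level was gained or lost through shared reads was not tested.

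The other 6 enzymes that were higher in both regions had log2 changes between 0.35 (Gpi1) and 0.65 (Pkm) in caudal tissue, and between 0.33 (Gpi1) and 0.53 (Pgam1) in trunk tissue. Pgk1, the first ATP-forming enzyme of the pathway, changed by 0.62 (adjusted p = 4.9e-06) in caudal and 0.52 (adjusted p = 5.5e-05) in trunk tissue. Pkm, pyruvate kinase of most tissues, changed by 0.65 (adjusted p = 6.8e-06) and 0.42 (adjusted p = 0.00043) in caudal and trunk tissue. Aldoa, the main aldolase, changed by 0.64 (adjusted p = 1e-05) and 0.50 (adjusted p = 0.00017) in the same order. Its second row, of 799 bases next to the first at chr7:126399962-126408280, was not called, at 0.20 (adjusted p = 0.36) in caudal and 0.065 (adjusted p = 0.82) in trunk tissue. Tpi1, triose phosphate isomerase, changed by 0.62 (adjusted p = 9.3e-06) in caudal and 0.38 (adjusted p = 0.00089) in trunk tissue. Pgam1, phosphoglycerate mutase, changed by 0.58 (adjusted p = 1.9e-05) in caudal and 0.53 (adjusted p = 0.00011) in trunk tissue. Gpi1, the isomerase after hexokinase, had the smallest of these changes, 0.35 (adjusted p = 6.3e-05) in caudal and 0.33 (adjusted p = 3e-04) in trunk tissue. All 6 had Ednrb-/- libraries above every WT library of the same region in both regions, as did 8.27% of all genes tested. Aldoc, the aldolase best known from brain, was low, at 0.854 ± 0.222 FPKM in Ednrb-/- caudal and 0.495 ± 0.0369 in WT caudal tissue, where it was called higher (0.43, adjusted p = 0.0063). In trunk tissue Aldoc was not called (0.17, adjusted p = 0.29).

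**Figure D2:**
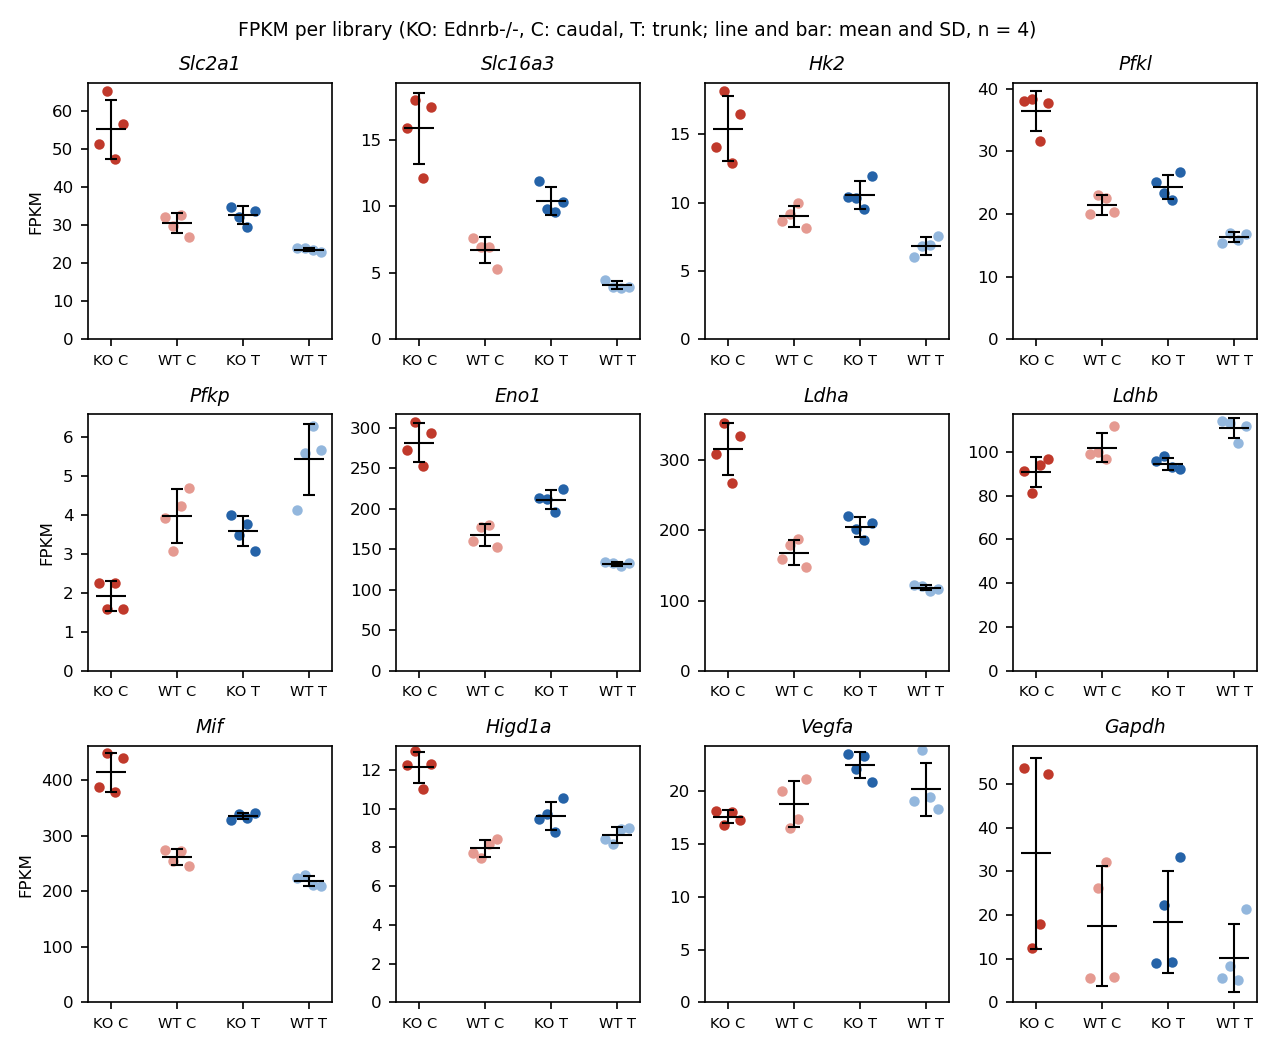
FPKM of 12 of the 38 genes in each of the 16 libraries, with the mean (line) and SD (bar) of 4 libraries per group. KO is Ednrb-/-, C caudal and T trunk. Slc2a1, Slc16a3, Hk2, Pfkl, Eno1, Ldha and Mif are highest in Ednrb-/- caudal tissue and lowest in WT trunk tissue, Pfkp runs the other way, Vegfa overlaps between genotypes, and Gapdh is spread widely in every group.

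The 4 enzymes that were lower in Ednrb-/- embryos each belonged to a step that has another isozyme among those that were higher. Pfkp (chr13:6629804-6698813, minus strand), the platelet-type phosphofructokinase, had 2.26, 1.60, 2.27 and 1.60 FPKM in Ednrb-/- caudal, against 3.92, 3.07, 4.23 and 4.71 in WT caudal replicates. It had 4.01, 3.499, 3.78 and 3.09 FPKM in Ednrb-/- trunk, against 4.14, 5.61, 6.30 and 5.68 in WT trunk replicates. All Ednrb-/- libraries were below all WT libraries of the same region, with a log2 change of -0.88 (SE 0.139, adjusted p = 0.00015) in caudal and -0.53 (SE 0.139, adjusted p = 0.012) in trunk tissue. Ldhb (chr6:142435975-142453683, minus strand), the subunit that favours the turn of lactate back to pyruvate, had 91.1, 81.2, 93.9 and 96.6 FPKM in Ednrb-/- caudal, against 99.2, 99.8, 96.6 and 112 in WT caudal replicates. In trunk tissue it had 95.6, 97.9, 92.9 and 91.9 FPKM in Ednrb-/-, against 114, 113, 104 and 112 in WT replicates. The groups did not overlap, though the highest Ednrb-/- caudal library and the lowest WT caudal library nearly touched, and the change was small, -0.17 (SE 0.054, adjusted p = 0.022) in caudal and -0.23 (SE 0.054, adjusted p = 0.007) in trunk tissue. The caudal Ldhb call was lost without Ednrb-/- caudal replicate 2, or without WT caudal replicate 4, each left out by itself here and below, at an adjusted p of 0.078 to 0.082, and with only the groups compared (adjusted p = 0.07).

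Hk1, the constitutive hexokinase known for its level in brain, was lower at -0.29 (adjusted p = 0.004) in caudal tissue, without overlap, and at -0.23 (adjusted p = 0.029) in trunk tissue, where the groups overlapped (5.41 to 6.22 FPKM in Ednrb-/- and 6.07 to 7.59 in WT libraries). Pfkm, the muscle-type phosphofructokinase, was lower at -0.13 (adjusted p = 0.039) in caudal tissue, where the groups overlapped, and at -0.23 (adjusted p = 0.0023) in trunk tissue, where they did not. The trunk Hk1 call was lost without Ednrb-/- trunk replicate 1, 2 or 3, or without WT trunk replicate 2, 3 or 4, at an adjusted p of 0.052 to 0.098, and with any of no filter on low values or the 3 libraries with both sex markers left out (adjusted p = 0.056 to 0.082). The caudal Pfkm call was lost without Ednrb-/- caudal replicate 1, 2 or 3, or without WT caudal replicate 2, 3 or 4, at an adjusted p of 0.053 to 0.11, and with any of no filter on low values, array weights, the 3 libraries with both sex markers left out or a sex term (adjusted p = 0.059 to 0.2). Neuronal and muscle marker sums, given above, were also lower in Ednrb-/- caudal tissue. In trunk tissue 0 of 10 neuronal markers were called, while 7 of 10 muscle markers were lower and 1 was higher. The part of these cell types in the lower Hk1, Pfkm, Pfkp and Ldhb values was not tested.

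The make-up of the isozyme families is given as a description, without a test. FPKM is divided by the listed gene length, which differs within a family, such as 3310 bases for Ldha and 1570 for Ldhb. Pfkp has 13401 bases and Pfkm 3340. The size of a share depends on these lengths, which are the same in every group. Ldha made up 77.5% ± 3.00 of the summed FPKM of Ldha and Ldhb in Ednrb-/- caudal and 68.3% ± 1.55 in Ednrb-/- trunk, against 62.2% ± 3.97 in WT caudal and 51.6% ± 0.517 in WT trunk tissue (SD, n = 4 each). Hk2 made up 73.8% ± 3.40 of Hk1 and Hk2 in Ednrb-/- caudal and 64.7% ± 1.34 in Ednrb-/- trunk, against 57.2% ± 4.30 in WT caudal and 50% ± 0.381 in WT trunk tissue. Pfkl made up 63.3% ± 2.04 of the 3 phosphofructokinases in Ednrb-/- caudal and 51.2% ± 2.61 in Ednrb-/- trunk, against 46.3% ± 2.17 in WT caudal and 36.4% ± 1.22 in WT trunk tissue. The order of the 4 groups was the same in these 3 families, with Ednrb-/- caudal at the one end and WT trunk at the other. Slc16a3 made up 38.9% ± 2.84 of the 2 lactate carriers in Ednrb-/- caudal and 37.4% ± 1.96 in Ednrb-/- trunk, against 28.4% ± 2.07 in WT caudal and 23.3% ± 1.06 in WT trunk tissue, so each Ednrb-/- mean was closer to the other Ednrb-/- mean than to a WT mean. The share of Slc2a1 in the 2 glucose importers was 71.6% ± 2.58 in Ednrb-/- caudal and 77.5% ± 1 in Ednrb-/- trunk, against 65.2% ± 3.06 in WT caudal and 73.9% ± 1.60 in WT trunk tissue.

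**Figure D3:**
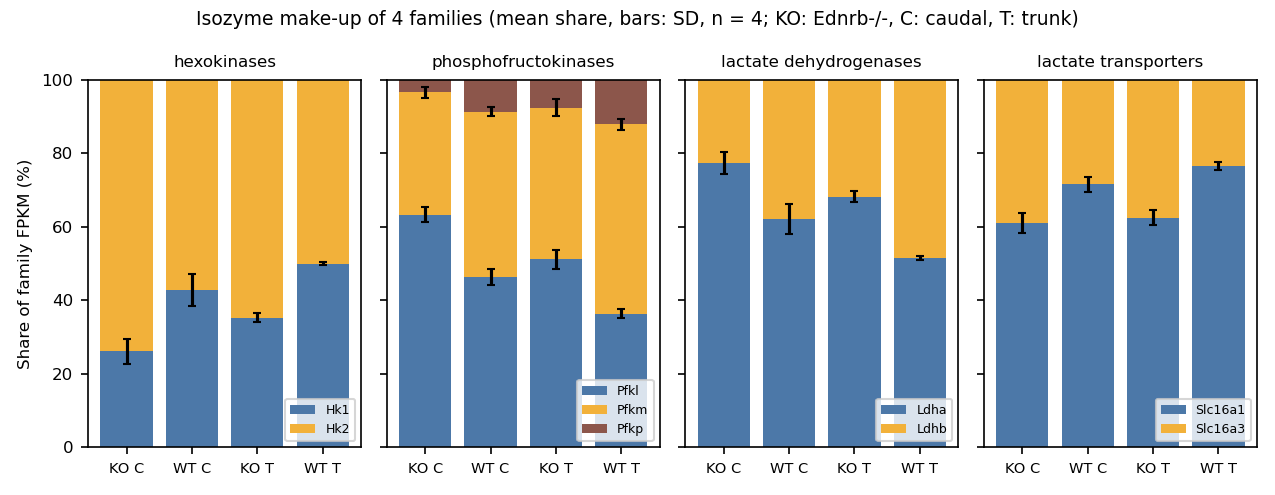
Share of each isozyme in the summed FPKM of its family (%), stacked as the mean of 4 libraries per group, with bars for the SD at the boundaries between isozymes. KO is Ednrb-/-, C caudal and T trunk. Ldha, Hk2 and Pfkl take their largest share in Ednrb-/- caudal and their smallest in WT trunk tissue.

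Gapdh, which makes the NADH of the pathway and is often used as a constant reference, could not be compared with confidence. It was listed at 53.7, 12.5, 17.9 and 52.2 FPKM in Ednrb-/- caudal, against 5.66, 26.2, 32.1 and 5.82 in WT caudal replicates. It was listed at 8.99, 22.2, 9.22 and 33.2 FPKM in Ednrb-/- trunk, against 5.58, 8.44, 5.13 and 21.4 in WT trunk replicates. Libraries of 1 group differed several-fold, the groups overlapped in both regions, and the change was 1.08 (SE 0.662, adjusted p = 0.21) in caudal and 0.85 (SE 0.662, adjusted p = 0.38) in trunk tissue. Its mean over all libraries, 20.02 FPKM, was below that of its pathway neighbours Tpi1 (126 FPKM) and Pgk1 (235 FPKM). The listed length by which FPKM is divided was 4133 bases for Gapdh, 2753 for Tpi1 and 2244 for Pgk1. The part of length in the lower level was not tested. Gapdh has many processed copies in the mouse genome, and the part of reads that map to several places was not tested. Rows named as copies were also present for Aldoa, Pgk1, Pgam1, Ldha, Ldhb, Mif and Bnip3l. The copy with the highest level averaged 8.85 FPKM over all libraries for Bnip3l, 6.34 for Pgam1, 1.86 for Ldha and 0.266 or less for the other 4. Those 7 genes did not show the spread between libraries that Gapdh did.

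Of the regulators, the 2 kinases that switch off pyruvate dehydrogenase, and so hold pyruvate back from the mitochondria, were higher in Ednrb-/- embryos. Another such kinase, Pdk2, lies outside the 38 genes and was lower in both regions, as given below. Pdk1 had 11.8, 10.4, 9.67 and 10.7 FPKM in Ednrb-/- caudal, against 7.00, 6.51, 5.38 and 5.69 in WT caudal replicates. It had 10.6, 8.16, 8.69 and 8.19 FPKM in Ednrb-/- trunk, against 5.65, 6.06, 4.92 and 5.30 in WT trunk replicates. Pdk1 groups were apart in both regions, with a log2 change of 0.75 (SE 0.093, adjusted p = 2.5e-05) in caudal and 0.65 (SE 0.093, adjusted p = 2e-04) in trunk tissue. Pdk3 changed less, by 0.31 (adjusted p = 0.00074) in caudal and 0.25 (adjusted p = 0.0067) in trunk tissue, also without overlap. Neither Pfkfb3 nor Pfkfb4, the enzymes that set the level of the activator of phosphofructokinase, was called. The Pfkfb3 change was 0.15 (adjusted p = 0.065) in caudal and 0.12 (adjusted p = 0.18) in trunk tissue. It was called higher in caudal tissue with any of quantile normalization, only the groups compared or array weights (adjusted p = 0.043 to 0.05). The Pfkfb4 change was -0.12 (adjusted p = 0.27) in caudal and -0.024 (adjusted p = 0.87) in trunk tissue.

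Among all genes tested 21.7% were called higher and 19.9% lower in caudal, and 12.2% higher and 13.0% lower in trunk tissue. Of the 14 hypoxia targets 6 were higher and 8 were not called in caudal tissue. In trunk tissue 4 hypoxia targets were higher, 1 was lower and 9 were not called. Mif (chr10:75695187-75696074, minus strand), a cytokine gene also listed among HIF targets, was the most abundant of them, with 388, 449, 379.5 and 439.7 FPKM in Ednrb-/- caudal, against 274, 255, 272 and 246 in WT caudal replicates. It had 329, 339, 332 and 341 FPKM in Ednrb-/- trunk, against 224, 229.6, 211 and 210.2 in WT trunk replicates. The groups were apart, with a log2 change of 0.66 (SE 0.055, adjusted p = 2e-06) in caudal and 0.62 (SE 0.055, adjusted p = 8.8e-06) in trunk tissue. Bnip3, a receptor for the removal of mitochondria, had 14.4, 13.1, 12.3 and 13.4 FPKM in Ednrb-/- caudal, against 12.2, 8.88, 8.37 and 8.98 in WT caudal replicates. It had 15.2, 12.1, 10.6 and 9.48 FPKM in Ednrb-/- trunk, against 6.81, 7.74, 7.13 and 5.93 in WT trunk replicates. Every Ednrb-/- library was above every WT library of its region, with a log2 change of 0.47 (SE 0.13, adjusted p = 0.0094) in caudal and 0.72 (SE 0.13, adjusted p = 0.001) in trunk tissue. Its paralogue Bnip3l was not called, at 0.084 (adjusted p = 0.23) in caudal and 0.091 (adjusted p = 0.24) in trunk tissue.

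The members Egln1 and Egln3, oxygen-sensing prolyl hydroxylases that are HIF targets and act back on HIF, were called higher in both regions. Egln3 was higher by 0.42 (adjusted p = 0.00087) in caudal and 0.24 (adjusted p = 0.039) in trunk tissue, and Egln1 by 0.16 (adjusted p = 0.0094) in caudal and 0.15 (adjusted p = 0.021) in trunk tissue. The trunk Egln3 call was lost without Ednrb-/- trunk replicate 1, 2 or 4, or without WT trunk replicate 2 or 3, at an adjusted p of 0.057 to 0.12, and with any of no filter on low values, only the groups compared or limma-voom on whole reads (adjusted p = 0.073 to 0.084). The trunk Egln1 call was lost without Ednrb-/- trunk replicate 1 or 2, or without WT trunk replicate 2, at an adjusted p of 0.052 to 0.058, and with limma-voom on whole reads (adjusted p = 0.062). The caudal Egln1 call was lost with any of TPM scaling, quantile normalization or limma-voom on whole reads (adjusted p = 0.12 to 0.28).

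Vegfa, the vascular growth factor that is a standard readout of HIF, was not called in either region. It had 18.1, 16.9, 18.01 and 17.3 FPKM in Ednrb-/- caudal, against 20.1, 16.5, 17.4 and 21.1 in WT caudal replicates. It had 23.6, 22.1, 23.3 and 20.9 FPKM in Ednrb-/- trunk, against 19.1, 23.9, 19.4 and 18.4 in WT trunk replicates. Both pairs of groups overlapped, and the log2 change was -0.087 (SE 0.082, adjusted p = 0.43) in caudal and 0.16 (SE 0.082, adjusted p = 0.18) in trunk tissue. Vegfa was called higher in trunk tissue without WT trunk replicate 2, at an adjusted p of 0.03. Ankrd37, Car9, the extracellular carbonic anhydrase, Ndrg1, Adm, which encodes the vasodilator adrenomedullin, and Ddit4, an inhibitor of mTORC1, were not called in either genotype comparison. Their log2 changes lay between -0.20 (Ndrg1) and 0.16 (Adm) in caudal tissue, and between -0.15 (Ndrg1) and 0.22 (Ankrd37) in trunk tissue. Of these 5, only Ddit4 averaged above 2 FPKM. Ndrg1 was called lower in caudal tissue without Ednrb-/- caudal replicate 1, at an adjusted p of 0.022, and with limma-voom on whole reads (adjusted p = 0.043). P4ha1, a catalytic subunit of the collagen prolyl hydroxylase, was higher in caudal tissue by 0.26 (adjusted p = 0.0026) and was not called in trunk tissue (0.16, adjusted p = 0.056). The caudal P4ha1 call was lost with TPM scaling (adjusted p = 0.054). A trunk P4ha1 call was gained without Ednrb-/- trunk replicate 3, or without WT trunk replicate 1, at an adjusted p of 0.028 to 0.044, and with any of a replicate block, array weights or the 3 libraries with both sex markers left out (adjusted p = 0.0084 to 0.036).

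Whether the genotype difference itself differed between regions was tested with the interaction, the trunk change minus the caudal change. It was called for 2 of the 38 members, Higd1a and P4ha2, both lower and both hypoxia targets, beside 3.78% higher and 2.98% lower among all genes tested. Without the 3 libraries with both sex markers 0 members were higher and 2 lower. On the deposited scale 650 genes had a higher and 513 a lower interaction, against 1130 and 299 under TPM scaling and 1187 and 447 with limma-voom. Higd1a (chr9:121677629-121687428, minus strand), a mitochondrial protein induced by hypoxia, had 12.2, 13.0, 11.0 and 12.3 FPKM in Ednrb-/- caudal, against 7.72, 7.48, 8.17 and 8.46 in WT caudal replicates. It had 9.46, 9.73, 8.80 and 10.5 FPKM in Ednrb-/- trunk, against 8.43, 8.19, 8.95 and 9.03 in WT trunk replicates. The caudal groups were apart and the trunk groups overlapped. The change was 0.58 (SE 0.06, adjusted p = 6.8e-06) in caudal and 0.15 (SE 0.06, adjusted p = 0.087) in trunk tissue, with an interaction of -0.43 (SE 0.084, adjusted p = 0.0097). A trunk Higd1a call was gained without Ednrb-/- trunk replicate 3, at an adjusted p of 0.04, and with the 3 libraries with both sex markers left out (adjusted p = 0.026).

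P4ha2 (chr11:53990921-54022491, plus strand), the second catalytic subunit of the collagen prolyl hydroxylase, was the only 1 of the 14 hypoxia targets lower in Ednrb-/- trunk tissue. It had 3.66, 3.67, 3.47 and 3.98 FPKM in Ednrb-/- caudal, against 2.92, 3.63, 3.19 and 3.53 in WT caudal replicates. It had 3.56, 3.31, 3.48 and 3.43 FPKM in Ednrb-/- trunk, against 4.39, 4.56, 3.71 and 4.09 in WT trunk replicates. The caudal groups overlapped and the trunk groups did not, with a change of 0.14 (SE 0.069, adjusted p = 0.12) in caudal and -0.25 (SE 0.069, adjusted p = 0.017) in trunk tissue. The trunk P4ha2 call was lost without WT trunk replicate 2, at an adjusted p of 0.059. A caudal call for a higher level was gained with quantile normalization (adjusted p = 0.029). Its interaction was -0.39 (SE 0.098, adjusted p = 0.031). The P4ha2 interaction call was lost without Ednrb-/- caudal replicate 2 or 4, or without Ednrb-/- trunk replicate 1, 2 or 3, or without WT caudal replicate 1 or 3, or without WT trunk replicate 1 or 2, at an adjusted p of 0.05 to 0.069, and with any of no filter on low values or TPM scaling (adjusted p = 0.061 to 0.063). Among the 24 transporters, enzymes and regulators limma called 0 interactions and 3 had an unadjusted p under 0.05, those of Slc2a1, Tpi1 and Pkm. The largest was that of Slc2a1, -0.39 (SE 0.118, adjusted p = 0.061), which was called with array weights (adjusted p = 0.049), with limma-voom on whole reads (adjusted p = 0.037) and without Ednrb-/- caudal replicate 3 (adjusted p = 0.021). So for the metabolic genes a difference between the regions in the genotype effect was not shown, and neither was its absence.

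The second question was how the trunk differed from the caudal region within each genotype. In Ednrb-/- embryos 4 members were higher and 20 lower in trunk than in caudal tissue, beside 17.3% higher and 18.9% lower among all genes tested. In WT embryos 2 members were higher and 14 lower, beside 9.69% higher and 8.35% lower. The split of all genes in Ednrb-/- embryos was 2982 higher and 3252 lower on the deposited scale, 3936 higher and 1945 lower under TPM scaling and 3535 higher and 2621 lower with limma-voom, while the members gave 5 higher and 15 lower, and 5 higher and 17 lower. The median change of the 38 was -0.19 in Ednrb-/- and -0.10 in WT embryos on the log2 scale, beside -0.012 and 0.002 over all genes tested. Without the 3 libraries with both sex markers the counts were 3 higher and 17 lower in Ednrb-/-, and 1 higher and 11 lower in WT embryos. In Ednrb-/- embryos the trunk libraries were all above the caudal ones for 3 of the 38 genes and all below for 17, beside 17.0% and 16.8% of all genes tested. In WT embryos they were all above for 4 and all below for 14, beside 11.0% and 10.3%. These comparisons use the same libraries as the genotype comparisons above.

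All 4 transporters were lower in trunk tissue in both genotypes, as were 4.84% of all genes tested. Slc2a3 had the largest region difference of the 38 genes. It had 9.39, 9.22, 9.08 and 10.0 FPKM in Ednrb-/- trunk, against 23.5, 21.9, 18.7 and 23.0 in Ednrb-/- caudal replicates. In WT embryos it had 9.51, 8.29, 8.00 and 7.58 FPKM in trunk, against 14.9, 17.7, 19.9 and 13.1 in caudal replicates. The trunk libraries were all below the caudal ones in each genotype, with a log2 change of -1.16 (SE 0.106, adjusted p = 2e-06) in Ednrb-/- and -0.92 (SE 0.106, adjusted p = 3.1e-05) in WT embryos. Slc2a1 was lower in trunk tissue at -0.74 (adjusted p = 1.3e-05) in Ednrb-/- and -0.36 (adjusted p = 0.0078) in WT embryos, Slc16a3 at -0.58 (adjusted p = 0.0016) in Ednrb-/- and -0.65 (adjusted p = 0.0016) in WT embryos, and Slc16a1 at -0.50 (adjusted p = 0.00015) in Ednrb-/- and -0.32 (adjusted p = 0.0085) in WT embryos.

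Of the 16 enzymes 10 were lower and 1 higher in trunk tissue of Ednrb-/- embryos, and 7 lower and 1 higher in trunk tissue of WT embryos. Among all genes tested 18.9% were lower and 17.3% higher in Ednrb-/-, and 8.35% lower and 9.69% higher in WT embryos. Ldha was lower at -0.62 (adjusted p = 6.2e-05) in Ednrb-/- and -0.50 (adjusted p = 0.00088) in WT embryos, Pfkl at -0.57 (adjusted p = 2.8e-05) in Ednrb-/- and -0.39 (adjusted p = 0.0016) in WT embryos, and Hk2 at -0.52 (adjusted p = 0.00091) in Ednrb-/- and -0.38 (adjusted p = 0.016) in WT embryos, with no overlap for any of the 3. The Hk2 call in WT embryos was lost without WT caudal replicate 3, at an adjusted p of 0.052. Eno1, Pgk1 and Pgam1 were lower in both genotypes as well, with log2 changes between -0.43 (Pgk1) and -0.34 (Pgam1) in Ednrb-/- embryos and between -0.34 (Eno1) and -0.29 (Pgam1) in WT embryos. Pkm and Tpi1 were called lower in Ednrb-/- trunk tissue, Pkm at -0.37 (adjusted p = 0.00061) and Tpi1 at -0.31 (adjusted p = 0.0021). In WT trunk tissue Pkm was at -0.14 (adjusted p = 0.16) and Tpi1 at -0.079 (adjusted p = 0.46), and neither interaction was called (adjusted p = 0.16 for Pkm and 0.15 for Tpi1). Aldoa was lower at -0.35 (adjusted p = 0.0014) in Ednrb-/- embryos and -0.21 (adjusted p = 0.046) in WT embryos. The Aldoa call in WT embryos was lost without WT caudal replicate 1, 2 or 3, or without WT trunk replicate 1, 3 or 4, at an adjusted p of 0.076 to 0.13, and with any of no filter on low values, only the groups compared, the 3 libraries with both sex markers left out or a sex term (adjusted p = 0.057 to 0.095). Pfkp was higher in trunk tissue of Ednrb-/- embryos by 0.76 (adjusted p = 0.00067), without overlap. In WT embryos Pfkp was not called, at 0.40 (adjusted p = 0.056), but it was called without WT caudal replicate 4, or without WT trunk replicate 1, at an adjusted p of 0.018 to 0.033, and with any of a pseudocount of 1, quantile normalization, array weights, limma-voom on whole reads or a sex term (adjusted p = 0.02 to 0.049).

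Gpi1 was lower at -0.14 (adjusted p = 0.032) in trunk tissue of Ednrb-/- embryos, a call that was lost without Ednrb-/- caudal replicate 1 or 2, or without Ednrb-/- trunk replicate 2 or 3, at an adjusted p of 0.087 to 0.11, and with any of no filter on low values, TPM scaling, quantile normalization, only the groups compared, limma-voom on whole reads or a sex term (adjusted p = 0.06 to 0.52). Pfkm was higher by 0.14 (adjusted p = 0.047) in trunk tissue of WT embryos, which was lost without WT caudal replicate 1, 2 or 3, or without WT trunk replicate 2, 3 or 4, at an adjusted p of 0.062 to 0.15, and with any of no filter on low values, TPM scaling, median-of-ratios scaling, only the groups compared, the 3 libraries with both sex markers left out or a sex term (adjusted p = 0.053 to 0.081). In WT embryos Gpi1 was at -0.12 (adjusted p = 0.11), with the trunk libraries all below the caudal ones, and in Ednrb-/- embryos Pfkm was at 0.037 (adjusted p = 0.58). Neither interaction was called (adjusted p = 0.88 for Gpi1 and 0.36 for Pfkm). Hk1 was not called between the regions, at 0.083 (adjusted p = 0.39) in Ednrb-/- and 0.018 (adjusted p = 0.89) in WT embryos. Ldhb was not called either, at 0.063 (adjusted p = 0.4) in Ednrb-/- and 0.12 (adjusted p = 0.14) in WT embryos. Ldhb was called higher in WT trunk tissue without WT caudal replicate 4, at an adjusted p of 0.037. Among the regulators Pdk1 was lower in Ednrb-/- trunk tissue at -0.25 (adjusted p = 0.048), a call that was lost without Ednrb-/- caudal replicate 1, 2 or 4, or without Ednrb-/- trunk replicate 2, 3 or 4, at an adjusted p of 0.08 to 0.13, and with any of a pseudocount of 0.1, no filter on low values, TPM scaling, quantile normalization, only the groups compared, limma-voom on whole reads, the 3 libraries with both sex markers left out or a sex term (adjusted p = 0.051 to 0.17). Pdk3 was lower at -0.21 (adjusted p = 0.013), and Pfkfb4 was higher by 0.31 (adjusted p = 0.0086), in Ednrb-/- trunk tissue. The Pdk3 call was lost with any of TPM scaling or quantile normalization (adjusted p = 0.07 to 0.075). In WT embryos the 3 ran the same way without a call, with Pdk1 at -0.15 (adjusted p = 0.3), Pdk3 at -0.15 (adjusted p = 0.094) and Pfkfb4 at 0.21 (adjusted p = 0.085). Pdk3 was called lower in WT trunk tissue without WT caudal replicate 4, at an adjusted p of 0.0087. The Pfkfb4 trunk libraries were all above the caudal ones in both genotypes. None of the 3 interactions was called (adjusted p = 0.7 for Pdk1, 0.73 for Pdk3 and 0.68 for Pfkfb4). Pfkfb3 was not called, at 0.13 (adjusted p = 0.13) in Ednrb-/- and 0.16 (adjusted p = 0.099) in WT embryos. Pfkfb3 was called higher in Ednrb-/- trunk tissue with any of TPM scaling or limma-voom on whole reads (adjusted p = 0.04 to 0.046). It was called higher in WT trunk tissue without WT trunk replicate 1, at an adjusted p of 0.019, and with array weights (adjusted p = 0.046).

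Of the 14 hypoxia targets 2 were higher and 4 lower in trunk tissue of Ednrb-/- embryos, and 1 was higher and 3 lower in trunk tissue of WT embryos, beside 17.3% higher and 18.9% lower in Ednrb-/- and 9.69% higher and 8.35% lower in WT embryos among all genes tested. With so few genes, nothing particular to the list is read from these counts, and the values below describe single genes. Mif was lower in trunk tissue in both genotypes, at -0.30 (adjusted p = 0.00071) in Ednrb-/- and -0.26 (adjusted p = 0.0046) in WT embryos, without overlap. The Mif call in Ednrb-/- embryos was lost with quantile normalization (adjusted p = 0.095). Vegfa ran against it, and was higher in trunk than in caudal tissue of Ednrb-/- embryos by 0.34 (adjusted p = 0.0043), without overlap, while in WT embryos the change was 0.10 (adjusted p = 0.44) and the interaction was not called (adjusted p = 0.22). Higd1a was lower in trunk tissue of Ednrb-/- embryos (-0.32, adjusted p = 0.00081) and not called in WT embryos (0.11, adjusted p = 0.21). P4ha2 was higher in trunk tissue of WT embryos (0.30, adjusted p = 0.0082) and not called in Ednrb-/- embryos (-0.089, adjusted p = 0.34). Bnip3 was lower in trunk tissue of WT embryos at -0.44 (adjusted p = 0.029), a call that was lost without WT caudal replicate 1, or without WT trunk replicate 1 or 4, at an adjusted p of 0.056 to 0.087, and with any of no filter on low values or the 3 libraries with both sex markers left out (adjusted p = 0.062 to 0.063). Egln3 was lower in trunk tissue of Ednrb-/- embryos at -0.26 (adjusted p = 0.022), a call that was lost without Ednrb-/- caudal replicate 4, or without Ednrb-/- trunk replicate 3, at an adjusted p of 0.058 to 0.071, and with any of TPM scaling or the 3 libraries with both sex markers left out (adjusted p = 0.07 to 0.08). Adm was higher there by 0.40 (adjusted p = 0.039), a call that was lost without Ednrb-/- caudal replicate 2 or 4, or without Ednrb-/- trunk replicate 2 or 3, at an adjusted p of 0.097 to 0.13, and with any of no filter on low values, quantile normalization, only the groups compared, a replicate block, the 3 libraries with both sex markers left out or a sex term (adjusted p = 0.055 to 0.12). In WT embryos Adm was at 0.37 (adjusted p = 0.087), with the trunk libraries all above the caudal ones, and its interaction was 0.031 (adjusted p = 0.95). Egln3 was at -0.089 (adjusted p = 0.5) in WT embryos, and Bnip3 at -0.18 (adjusted p = 0.31) in Ednrb-/- embryos. Neither interaction was called (adjusted p = 0.4 for Egln3 and 0.42 for Bnip3). Ndrg1 was not called between regions, but was called higher in Ednrb-/- trunk tissue without Ednrb-/- caudal replicate 1, at an adjusted p of 0.037.

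Bnip3l was lower in trunk tissue at -0.16 (adjusted p = 0.03) in Ednrb-/- and -0.17 (adjusted p = 0.043) in WT embryos. The Bnip3l call in Ednrb-/- embryos was lost without Ednrb-/- caudal replicate 1, 3 or 4, or without Ednrb-/- trunk replicate 2, 3 or 4, at an adjusted p of 0.053 to 0.092, and with any of no filter on low values, TPM scaling, quantile normalization, only the groups compared, limma-voom on whole reads or the 3 libraries with both sex markers left out (adjusted p = 0.061 to 0.38). The Bnip3l call in WT embryos was lost without WT caudal replicate 1, 2 or 3, or without WT trunk replicate 2, 3 or 4, at an adjusted p of 0.068 to 0.13, and with any of no filter on low values, quantile normalization or the 3 libraries with both sex markers left out (adjusted p = 0.077 to 0.11). Tail bud markers were lower in trunk tissue for 10 of 10 in Ednrb-/- and 8 of 10 in WT embryos, epithelial markers for 8 of 8 and 7 of 8, and endothelial markers for 10 of 10 and 6 of 10. Skeletal muscle markers were higher in trunk tissue for 9 of 10 in Ednrb-/- and 7 of 10 in WT embryos, with 1 lower in WT. Neuronal markers were higher for 10 of 10 in Ednrb-/- and called for none in WT embryos. Among all genes tested 17.3% were called higher and 18.9% lower in Ednrb-/-, and 9.69% higher and 8.35% lower in WT embryos. The part of these cell types in the region differences was not tested.

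**Figure D4:**
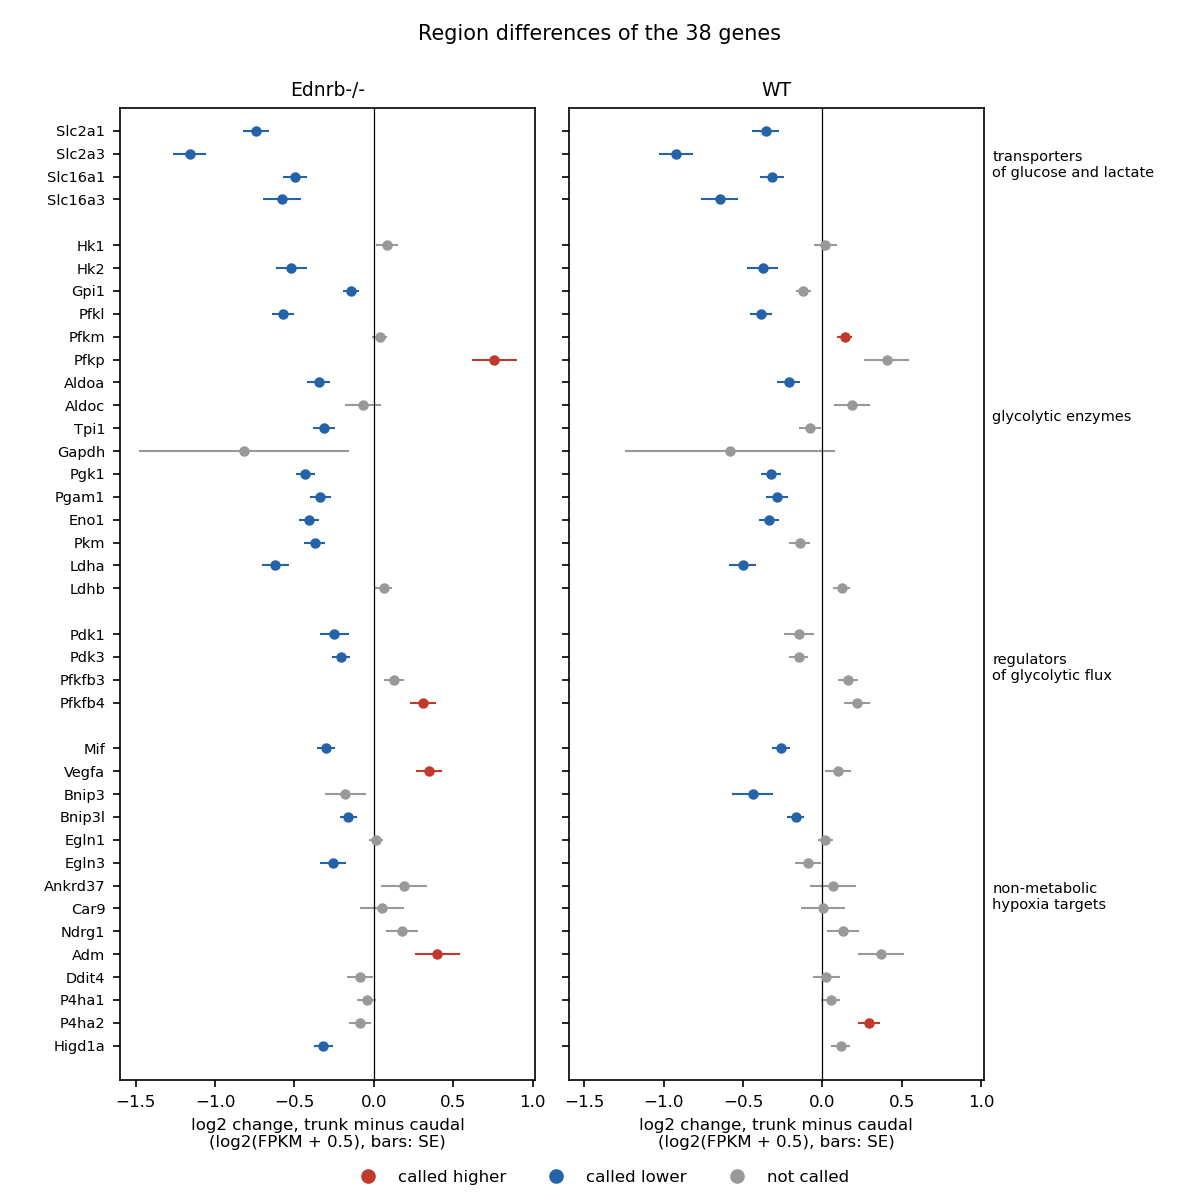
Log2 change of each of the 38 genes, trunk minus caudal, in Ednrb-/- (left) and WT embryos (right) on the log2(FPKM + 0.5) scale, with bars for the SE and 4 libraries per group. Blue points were called lower in trunk, red higher and grey neither. All 4 transporters sit left of 0 in both panels, and Pfkp, Vegfa and Pfkfb4 sit right of 0 in both.

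Genes around the 38 were counted by list in the genotype comparisons. Each count stands beside 21.7% higher and 19.9% lower in caudal, and 12.2% higher and 13.0% lower in trunk tissue among all genes tested, and nothing particular to a list is read from it. The HIF pathway had 4 of 13 higher and 1 lower in caudal, and 2 higher and 3 lower in trunk tissue, with medians of 0.014 and 0.02 on the log2 scale. Hif1an, the hydroxylase that blocks the HIF activation domain, was higher by 0.27 (adjusted p = 7.7e-05) in caudal and 0.14 (adjusted p = 0.015) in trunk tissue, and Hif3a, whose short forms inhibit HIF, was lower at -0.43 (adjusted p = 0.012) in caudal and -0.40 (adjusted p = 0.032) in trunk tissue. Vhl, the ubiquitin ligase subunit that marks HIF for degradation, was lower in trunk tissue at -0.17 (adjusted p = 0.0077). Hif1a and Epas1, the oxygen-regulated subunits, are named here outside the rule and after their values were seen. Neither was called, with Hif1a at -0.046 (adjusted p = 0.46) in caudal and 0.043 (adjusted p = 0.54) in trunk tissue, and Epas1 at -0.16 (adjusted p = 0.12) and 0.18 (adjusted p = 0.095) in the same order. HIF is regulated mainly through its protein, which these libraries do not measure.

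Hypoxia targets outside the 38 had 3 of 16 higher and 2 lower in caudal, and 4 higher and 3 lower in trunk tissue, with medians of 0.026 and 0.053 on the log2 scale. As a share of the list the caudal counts were below those over all genes tested, 21.7% higher and 19.9% lower, and the trunk counts above theirs, 12.2% and 13.0%. Ak4, a mitochondrial adenylate kinase, had the largest change of them, 0.87 (adjusted p = 1.9e-05) in caudal and 1.01 (adjusted p = 2.2e-05) in trunk tissue. Tfrc, the transferrin receptor, was higher by 0.41 (adjusted p = 2.3e-05) in caudal and 0.33 (adjusted p = 0.00027) in trunk tissue, while the collagen lysyl hydroxylase Plod2 was lower in caudal (-0.30, adjusted p = 3e-04) and Plod1 in trunk tissue (-0.30, adjusted p = 0.00037). Other isozymes of glycolysis had 4 of 12 higher and 4 lower in caudal, and 2 higher and 2 lower in trunk tissue. Pklr, pyruvate kinase of liver and red cells, was higher by 1.42 (adjusted p = 4.5e-05) in caudal and 0.68 (adjusted p = 0.017) in trunk tissue, and the muscle enolase Eno3 by 0.45 (adjusted p = 3e-04) in caudal and 0.56 (adjusted p = 0.00014) in trunk tissue. The muscle mutase Pgam2 was lower in caudal tissue at -1.01 (adjusted p = 1.6e-05).

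Genes that bring pyruvate into the mitochondria had 5 of 10 higher and 4 lower in caudal, and 2 higher and 3 lower in trunk tissue. Pdp1, a phosphatase that reactivates pyruvate dehydrogenase, was lower at -0.55 (adjusted p = 7.7e-05) in caudal and -0.25 (adjusted p = 0.032) in trunk tissue, and the kinase Pdk2 was lower at -0.57 (adjusted p = 0.0012) and -0.59 (adjusted p = 0.0019) in the same order, against the direction of Pdk1 and Pdk3. Mpc1, a subunit of the mitochondrial pyruvate carrier, was lower in caudal tissue at -0.55 (adjusted p = 0.00078). The pentose phosphate pathway had 3 of 7 higher and 0 lower in caudal, and 2 higher and 0 lower in trunk tissue, with Tkt, transketolase, at 0.42 (adjusted p = 2e-04) in caudal and 0.34 (adjusted p = 0.0025) in trunk tissue. Gluconeogenesis had 1 of 4 higher and 0 lower in caudal, and 0 higher and 1 lower in trunk tissue. The tricarboxylic acid cycle had 13 of 16 higher and 0 lower in caudal, and 3 higher and 0 lower in trunk tissue, beside 21.7% and 12.2% higher among all genes tested. Its median log2 change was 0.19 in caudal and 0.068 in trunk tissue, beside 0.62 and 0.46 for the glycolytic enzymes. These counts and medians are on the deposited scale. As a share of reads the cycle genes took 0.227% ± 0.00521 in Ednrb-/- caudal, against 0.206% ± 0.00562 in WT caudal tissue. The shares were 0.206% ± 0.00342 in Ednrb-/- trunk and 0.202% ± 0.00300 in WT trunk tissue (SD, n = 4 each). Suclg2, a subunit of succinyl-CoA synthetase, was higher by 0.48 (adjusted p = 2.6e-05) in caudal and 0.29 (adjusted p = 0.0029) in trunk tissue, and Fh1, fumarase, by 0.33 (adjusted p = 3e-05) and 0.14 (adjusted p = 0.024).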

How the data were processed

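Trunk or caudal tissue of E11.5 embryos was lysed in TRIzol and total RNA sequenced on Illumina libraries, per the labels' protocols. The submitters' processing notes name fastp with no version, HISAT2 2.0.5, featureCounts 1.5.0-p3 and the mm39 build. They give no annotation release, strand setting or rule for multi-mapping reads in the text used here. The deposited values were FPKM by the authors, 1 column per library, per the file headers.

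Multiplying FPKM by gene length and dividing by a library's step gave whole reads for 100% of values (tolerance 0.01), from which depth was taken. Each library's FPKM rested on a total of 0.949 to 1.03 times its listed reads. The ratio was 0.949 to 1.006 in Ednrb-/- libraries and 1.013 to 1.035 in WT libraries, without overlap. A smaller total gives a higher FPKM for the same share of reads, so the deposited scale places Ednrb-/- libraries slightly higher. At this depth the spread between libraries, more than counting error, limited precision. In every pair of libraries within a group the reads differed beyond sampling noise (chi-square per degree of freedom 6.05 to 19.7).

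Groups came from the titles. limma 3.58.1 in R 4.3.3 was fitted to log2(FPKM + 0.5) with 4 group means over all 16 libraries and a trended prior variance. The test took 17205 genes that reached 0.5 FPKM in 4 or more libraries, and p-values were adjusted over all of them by the Benjamini-Hochberg method, with a call at an adjusted p under 0.05. All 38 genes passed the filter. Alternatives were pseudocounts of 0.1 and 1, a filter at 1 FPKM and none, scaling by TPM, by median of ratios and by quantiles, fits of the groups compared, a replicate block, array weights, limma-voom on whole reads, a sex term, the 3 libraries with both sex markers left out, and each library left out. Aldoa is its row with the higher mean. The members and the other lists were chosen with earlier results of these data known. Any member could be named, and up to 4 genes of each other list by lowest adjusted p. Promoters came from RefSeq on GRCm38.p6, and all other coordinates from the deposited table on mm39. Figures were drawn with matplotlib 3.10.9.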

Additional observations from a re-analysis of the deposited data

Results flagged for a closer look

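In 6 of the 152 combinations of a gene and a group, 1 library lay far from the other 3, and chance flags about 1 in 20 such groups. Slc16a3 in WT trunk replicate 1 had 4.496 FPKM beside 3.88 to 3.97 in the other 3. Pfkl in Ednrb-/- caudal replicate 3 had 31.6 FPKM beside 37.7 to 38.42 in the other 3. Pfkfb3 had 7.706 FPKM beside 6.642 to 6.813 in the other 3 in Ednrb-/- trunk replicate 1, and 5.848 FPKM beside 5.527 to 5.545 in the other 3 in WT caudal replicate 1. Bnip3 in WT caudal replicate 1 had 12.18 FPKM beside 8.374 to 8.981 in the other 3. Bnip3l in WT trunk replicate 1 had 40.71 FPKM beside 38.63 to 38.87 in the other 3. In 2 genes the genotype change differed between trunk and caudal tissue by the interaction, Higd1a at -0.432 and P4ha2 at -0.386 on the log2 scale (limma, adjusted p = 0.0097 and 0.031).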

How the results depend on the processing

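No called member turned in direction under any alternative run, and the counts of members higher in each genotype comparison stayed within 1.5 times the values reported. The 2 members called higher in WT trunk against WT caudal tissue became 1 with no filter, under TPM and median-of-ratios scaling, in a fit of the groups compared and without the 3 libraries with both sex markers, and 4 with array weights. The 2 lower interactions became 1 with no filter and under TPM scaling. With 1 library left out at a time, members higher were 23 to 23 in the caudal and 17 to 21 in the trunk genotype comparison, 3 to 5 between regions of Ednrb-/- and 1 to 4 between regions of WT embryos. Members lower were 2 to 4 (caudal genotype), 3 to 5 (trunk genotype), 16 to 20 (regions of Ednrb-/-), 11 to 15 (regions of WT) and 1 to 3 (interaction). The caudal count was 2 when either Ednrb-/- caudal replicate 2 or replicate 4 of WT caudal was left out, and the lowest trunk count, 3, without WT trunk replicate 2. A smaller set of libraries or a larger set of genes tested is part of the construction of these alternatives, and for the scalings the cause was not tested. The sources used here do not say whether replicate numbers pair the samples. The correlations of deviations between same-numbered libraries lay between -0.084 and 0.109. Libraries with different numbers were not correlated as a baseline, so these values do not settle whether the numbers pair samples. With a replicate block the members called higher and lower were 23 and 4 in the caudal and 20 and 5 in the trunk genotype comparison, 3 and 20 between regions of Ednrb-/-, 2 and 14 between regions of WT embryos, and 0 and 2 for the interaction. Genes under 1 FPKM on average, Ndrg1, Adm, Aldoc and Car9, are limited by the pseudocount.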
